A study of Sus scrofa with 4 samples.

Results

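The 8 glucocorticoid response genes described here are the receptor gene NR3C1 and 7 genes that the activated receptor is known to induce: FKBP5, TSC22D3, ZBTB16, KLF9, CEBPD, SGK1 and ERRFI1. They were chosen by gene symbol from the 26466 symbols of the count files. All 8 were found on 1 line each and passed the filter of at least 10 counts in 1 library, as did 18168 genes in all. RNA of pig kidney was sequenced in 4 libraries, 1 in each of 4 groups, so a difference between single groups has no replicate check. In the labels the donor pigs had the genotype GalT-/-;hCD39;hCD46;hCD55;TBM, called CD39/CD46/CD55/TBM below, or GalT-/-;hCD39;hCD55, called CD39/CD55. Both genotypes lack the galactosyltransferase that makes the alpha-Gal antigen and carry human CD39 and CD55, so no kidney of an unmodified pig serves as a reference. TBM stands for thrombomodulin. The groups were a CD39/CD46/CD55/TBM kidney taken 6 weeks after transplantation into a non-human primate (the 6-week graft), a CD39/CD55 kidney taken 4 weeks after it (the 4-week graft), an untransplanted CD39/CD46/CD55/TBM kidney and an untransplanted CD39/CD55 kidney. The untransplanted kidney of the same genotype is called the counterpart of each graft. Between the grafts, genotype, weeks and recipient cannot be told apart. The sources used here give neither the age, sex and hour of sampling of the animals, nor the promoters of the transgenes, nor any steroid given to the recipients.

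Glucocorticoids enter the cell and bind NR3C1, which waits in the cytoplasm in a complex with HSP90 and its partner proteins. The bound receptor moves to the nucleus and switches genes on or off. FKBP5 is both a product of this response and a brake on it, since the protein lowers the affinity of the receptor for the hormone. In the distal nephron the enzyme HSD11B2 inactivates cortisol, which leaves the related receptor NR3C2 to aldosterone. FKBP5, TSC22D3 and SGK1 are known targets of both receptors.

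Total counts were 10346863 and 11566041 in the 6-week and 4-week grafts, against 13226372 and 14092905 in their untransplanted counterparts. Ribosomal RNA loci took 18.9% and 22.4% of counts in the 6-week and 4-week grafts, against 12.6% and 10.8% in their untransplanted counterparts. Cell type markers also differed between the states. Of 10 proximal tubule markers 7 fell and none rose after transplantation in edgeR's quasi-likelihood test, in which 2.71% of all genes fell and 1.24% rose. The summed level of these markers was 3167 and 6191 scaled CPM in the 6-week and 4-week grafts, against 11780 and 10810 in their counterparts. SLC22A6 was at 0 counts in the 6-week graft, and no other proximal tubule marker was at 0 in any library. Of 13 leukocyte markers 10 passed the filter, and 5 of these fell. The summed levels of all 13 were 8.99 and 5.82 scaled CPM in the 6-week and 4-week grafts, against 62.4 and 70.7 in their counterparts. Of these 13, C1QC, CD2 and CD79A were at 0 in the 6-week graft and C1QC, S100A8 and S100A12 in the 4-week graft, while CD79A was at 0 in both untransplanted kidneys and MS4A1 in the CD39/CD55 one. Scaled CPM are CPM computed with library sizes adjusted by the TMM factors of edgeR. Of 7 markers of the thick ascending limb and distal convoluted tubule 2 fell, with summed levels of 445.9 and 729.9 scaled CPM in the 6-week and 4-week grafts, against 1626 and 3676 in their counterparts. Of the other lists, 2 of 6 podocyte, 1 of 7 endothelial and 1 of 8 fibroblast and smooth muscle markers fell, and none of them rose. In bulk tissue fewer cells of a type and less RNA per cell cannot be told apart, and the part of these shifts in the results below was not tested.

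In both genotypes FKBP5 was higher in the transplanted kidney, and it was the only member called higher, by the rule given below, in both. Of all genes 5.88% were. SGK1 was higher after transplantation in CD39/CD46/CD55/TBM and lower in CD39/CD55, and TSC22D3 was the other way round; 7.57% of all genes had such opposite changes, each with a counting interval that excluded 1. ZBTB16, CEBPD, KLF9 and NR3C1 were modestly higher in both transplanted kidneys, by less than 2-fold, and ERRFI1 was low in the untransplanted CD39/CD55 kidney. In edgeR's test of the 2 transplanted against the 2 untransplanted libraries none of the 8 passed an adjusted p of 0.05.

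**Figure D1:**
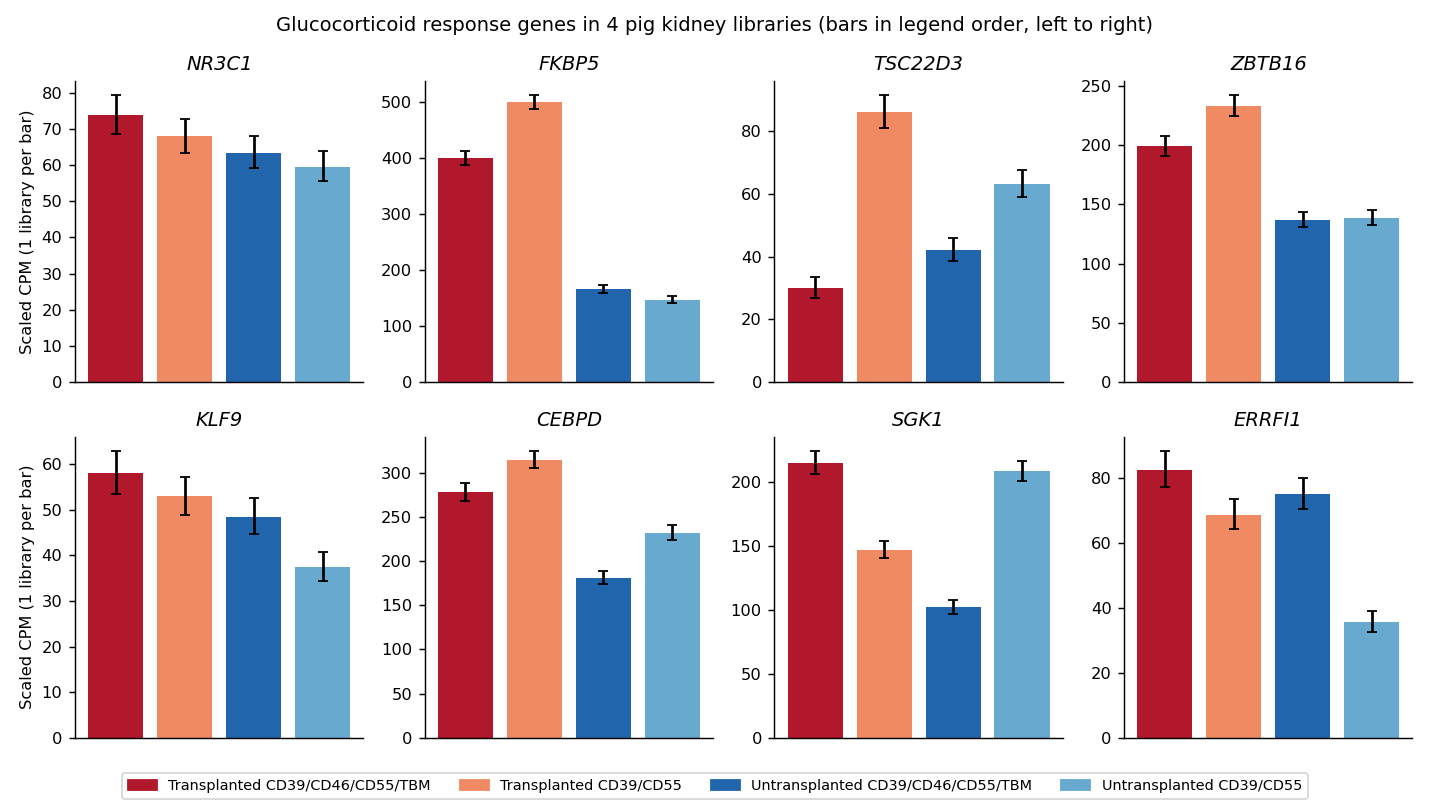
Scaled CPM of the 8 genes (vertical axes, from 0, 1 panel a gene) in the 4 libraries, with bars in the order of the legend and 95% Poisson counting intervals. FKBP5 stood at 400.9 and 499.9 scaled CPM in the transplanted kidneys and at 165.7 and 147.6 in the untransplanted ones, while NR3C1 stayed between 59.6 and 73.8.

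NR3C1 (chromosome 2, 144822937 to 144956451, Sscrofa11.1) encodes the glucocorticoid receptor itself. It had 764 counts in the 6-week CD39/CD46/CD55/TBM graft and 841 in the 4-week CD39/CD55 graft, against 803 and 818 in their untransplanted counterparts. In scaled CPM these were 73.8 and 68.0 in the 6-week and 4-week grafts and 63.5 and 59.6 in their counterparts. Both transplanted libraries lay above both untransplanted ones, but neighbours in the order had overlapping counting intervals. The ratio of transplanted to untransplanted was 1.16 (95% counting interval 1.05 to 1.29) in CD39/CD46/CD55/TBM and 1.14 (1.03 to 1.26) in CD39/CD55. The fit over both genotypes gave 0.20 on the log2 scale (SE 0.39, adjusted p = 0.81). A protein-coding locus that overlaps it, LOC110259145, had 68 and 31 counts in the 6-week and 4-week grafts, against 15 and 8 in their counterparts. With these subtracted from NR3C1 its log2 ratio was 0.11 in CD39/CD46/CD55/TBM and 0.15 in CD39/CD55, a check chosen after seeing the data.

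FKBP5 (chromosome 7, 31441764 to 31550704) encodes the co-chaperone that restrains the receptor. Its counts were 4148 in the 6-week CD39/CD46/CD55/TBM graft and 6186 in the 4-week CD39/CD55 graft, against 2096 and 2026 in their untransplanted counterparts. The transplanted libraries stood clear of the untransplanted ones, and the untransplanted ones were close to each other. The ratio of transplanted to untransplanted was 2.42 (2.30 to 2.55) in CD39/CD46/CD55/TBM and 3.39 (3.22 to 3.56) in CD39/CD55. Of the tested genes 12.7% had a ratio at least as high in CD39/CD46/CD55/TBM and 5.77% in CD39/CD55. Over both genotypes the log2 fold change was 1.52 (SE 0.45), with an unadjusted p of 0.00515 and an adjusted p of 0.0833 in edgeR's test. DESeq2's Wald test gave an adjusted p of 0.00687 and the fit with genotype as a block gave 0.00696, while limma voom gave 0.0672. Over all alternatives the adjusted p lay between 0.00687 and 0.456, the highest without the untransplanted CD39/CD55 library. The ratio was smaller in CD39/CD46/CD55/TBM than in CD39/CD55, with a log2 difference of -0.49 (counting interval -0.59 to -0.38) that has no replicate check.

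An lncRNA locus overlaps FKBP5. This locus, LOC110261510, had 488 counts in the 6-week CD39/CD46/CD55/TBM graft and 1004 in the 4-week CD39/CD55 graft, against 215 and 199 in their untransplanted counterparts. It was thus high in the same 2 libraries as FKBP5. Its counts equalled 11.8% and 16.2% of those of FKBP5 in the 6-week and 4-week grafts, against 10.3% and 9.82% in their counterparts. The sources used here do not say whether counting used strand, so reads of the 2 loci cannot be told apart. With the locus subtracted, a check chosen after seeing the data, the log2 ratio of FKBP5 was 1.25 in CD39/CD46/CD55/TBM and 1.65 in CD39/CD55. Without the subtraction it was 1.27 in CD39/CD46/CD55/TBM and 1.76 in CD39/CD55.

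TSC22D3 (chromosome X, 88171325 to 88233583) encodes the leucine zipper protein GILZ, which restrains the inflammatory factors NF-kappaB and AP-1. It had 310 counts in the 6-week CD39/CD46/CD55/TBM graft and 1065 in the 4-week CD39/CD55 graft, against 533 and 867 in their untransplanted counterparts. The lowest and the highest library were thus the 2 transplanted ones. After transplantation its ratio was 0.712 (0.616 to 0.820) in CD39/CD46/CD55/TBM and 1.36 (1.25 to 1.49) in CD39/CD55. These ratios fall on opposite sides of 1, with a log2 difference of -0.94 (-1.18 to -0.70) between the genotypes. Over both genotypes the log2 fold change was 0.14 (SE 0.50, adjusted p = 0.902), and its sign turned to -0.80 without the 4-week graft.

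Among the transcription factors, ZBTB16 (chromosome 9, 41639536 to 41839254), a zinc finger repressor also called PLZF, had 2063 and 2888 counts in the 6-week and 4-week grafts, against 1733 and 1904 in their untransplanted counterparts. Its untransplanted levels, 137.0 and 138.7 scaled CPM, did not differ beyond counting error, and both transplanted levels were above them. The ratio after transplantation was 1.46 (1.36 to 1.55) in CD39/CD46/CD55/TBM and 1.68 (1.59 to 1.78) in CD39/CD55. The fit over both genotypes gave 0.65 on the log2 scale (SE 0.42, adjusted p = 0.423). A pair of lncRNA loci that overlap it had counts equal to at most 4.85% of its count in any library.

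CEBPD (chromosome 4, 79872863 to 79874481) encodes C/EBP delta, a factor of the acute phase response. It had 2875 and 3891 counts in the 6-week and 4-week grafts, against 2290 and 3187 in their untransplanted counterparts. In scaled CPM each transplanted library lay above both untransplanted libraries. The ratio was 1.54 (1.45 to 1.62) in CD39/CD46/CD55/TBM and 1.35 (1.29 to 1.42) in CD39/CD55, and the log2 fold change over both was 0.52 (SE 0.44, adjusted p = 0.546).

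KLF9 (chromosome 1, 223723613 to 223747661), a Kruppel-like factor, had 601 and 655 counts in the 6-week and 4-week grafts, against 614 and 514 in their untransplanted counterparts. After scaling these were 58.1 and 52.9 CPM in the 6-week and 4-week grafts and 48.5 and 37.4 CPM in their counterparts. The transplanted libraries were the 2 highest, but the counting intervals of the 4-week graft and the untransplanted CD39/CD46/CD55/TBM kidney overlapped. The ratio after transplantation was 1.20 (1.07 to 1.34) in CD39/CD46/CD55/TBM and 1.41 (1.26 to 1.59) in CD39/CD55, and the fit over both gave 0.37 (SE 0.40, adjusted p = 0.644).

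Of the signalling genes, SGK1 (chromosome 1, 29625786 to 29753619) encodes a kinase that keeps the epithelial sodium channel at the cell surface. It had 2225 counts in the 6-week CD39/CD46/CD55/TBM graft and 1819 in the 4-week CD39/CD55 graft, against 1291 and 2858 in their untransplanted counterparts. The order of the libraries followed neither state nor genotype, and the highest levels, 215.1 scaled CPM in the 6-week graft and 208.2 in the untransplanted CD39/CD55 kidney, had overlapping counting intervals. The ratio after transplantation was 2.11 (1.97 to 2.26) in CD39/CD46/CD55/TBM and 0.706 (0.665 to 0.749) in CD39/CD55. The log2 difference between these changes was 1.58 (1.45 to 1.71), the only one of the 8 past 2-fold. Of all genes 10.4% were called higher and 11.5% lower in that difference. The fit over both genotypes gave 0.22 on that scale, with SE 0.48 and an adjusted p of 0.831. Leaving out the 6-week graft made it -0.074 and leaving out its counterpart -0.20. Collecting duct markers, none of which passed the test, had summed levels of 172.1 and 100.5 scaled CPM in the 6-week and 4-week grafts, against 107.4 and 81.5 in their counterparts. AQP3 was at 0 counts in every library but the 4-week graft. Not every marker followed these sums. SCNN1G had 104 and 146 counts in the 6-week and 4-week grafts, against 354 and 106 in their counterparts. HSD11B2 had 8 and 23 in the grafts, against 34 and 11 in their counterparts. Both were called lower in CD39/CD46/CD55/TBM, and HSD11B2 was called higher in CD39/CD55. The rest of the list is not given gene by gene. The part of these markers in the result for SGK1 was not tested.

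ERRFI1 (chromosome 6, 68667651 to 68682629) encodes MIG6, a feedback inhibitor of the epidermal growth factor receptor. It had 855 and 851 counts in the 6-week and 4-week grafts, against 951 and 490 in their untransplanted counterparts. The untransplanted CD39/CD55 library was low and the other 3 were close together. Its log2 ratio after transplantation was 0.14 (0.0017 to 0.27) in CD39/CD46/CD55/TBM and 0.95 (0.78 to 1.11) in CD39/CD55, a difference of -0.81 (-1.02 to -0.60). Over both genotypes it was 0.45 (SE 0.45, adjusted p = 0.615).

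**Figure D2:**
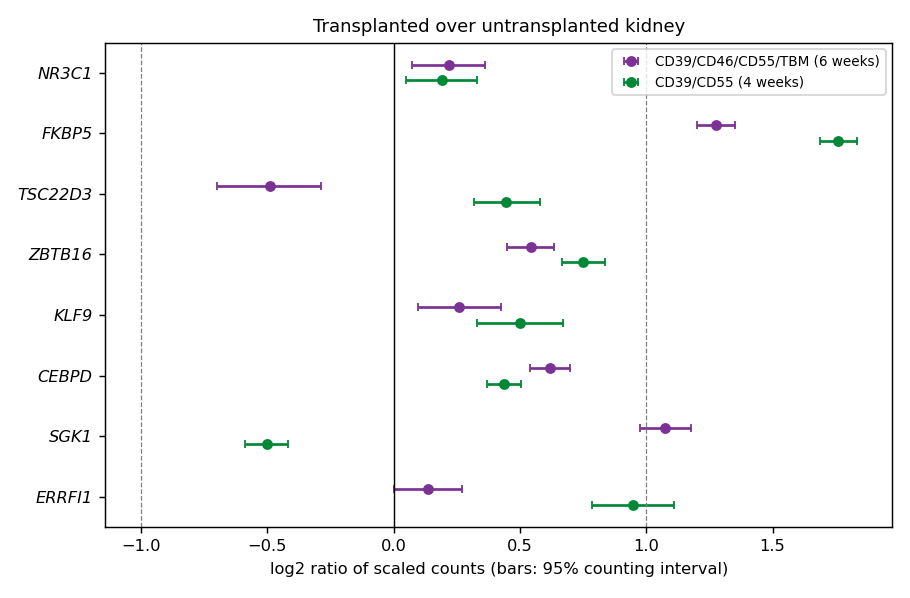
Log2 ratio of scaled counts, transplanted over untransplanted kidney (horizontal axis), for the 8 genes in each genotype, with 95% counting intervals and dashed lines at 2-fold. FKBP5 lies beyond 2-fold in both genotypes, at 1.27 in CD39/CD46/CD55/TBM and 1.76 in CD39/CD55, and SGK1 and TSC22D3 lie on opposite sides of 0 in the genotypes.

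Counted over the 8 genes, the pair of libraries in CD39/CD46/CD55/TBM gave 2 called higher, FKBP5 and SGK1, and none lower. The rule for a call, a difference of 2-fold or more with an interval that leaves out 1, compares 2 libraries and not 2 conditions. Of all tested genes 15.9% were called higher and 16.3% lower there. In CD39/CD55 only FKBP5 was called higher and none lower, against 13.2% and 13.7% of all genes. The 1 of 8 called in CD39/CD55 is close to the background. The median log2 ratio of the 8 genes was 0.40 in CD39/CD46/CD55/TBM and 0.47 in CD39/CD55, beside 0.01 and 0.03 over all genes in the same comparisons.

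In the test over both genotypes none of the 8 passed, where 1.24% of all genes rose and 2.71% fell. At an unadjusted p under 0.05, which 19.7% of all genes reached, edgeR gave 1 of the 8, FKBP5, and DESeq2's Wald test gave FKBP5 after adjustment too. Limma voom gave none after adjustment. The fitted log2 fold changes of all 8 were above 0, with a median of 0.41, while 51.3% of all genes were above 0 and their median was 0.03. The sign for TSC22D3 turned under limma voom, with genotype as a block and when the counterpart of the 6-week graft was removed, besides the case above. For 5 of the 8 genes, NR3C1, FKBP5, ZBTB16, KLF9 and CEBPD, both transplanted libraries lay above both untransplanted ones in scaled CPM, and 26.3% of all genes did the same. None of the 8 had both transplanted libraries below, against 25.5% of all genes.

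The genotypes were compared within each state. Between the transplanted kidneys the widest difference was in TSC22D3, at 30.0 scaled CPM in CD39/CD46/CD55/TBM and 86.1 in CD39/CD55, a log2 ratio of -1.52 (-1.71 to -1.34). It was the 1 member called lower and none was called higher, where 11% of all genes were called in each direction. Between the untransplanted kidneys ERRFI1 was called higher in CD39/CD46/CD55/TBM (1.07, interval 0.92 to 1.23) and SGK1 lower (-1.03, interval -1.12 to -0.93). Of all genes 8.17% were called higher and 7.88% lower in that pair. TSC22D3 was lower in CD39/CD46/CD55/TBM there too, at 42.1 scaled CPM against 63.2 in CD39/CD55, a log2 ratio of -0.58 (-0.74 to -0.43) that did not reach 2-fold.

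**Figure D3:**
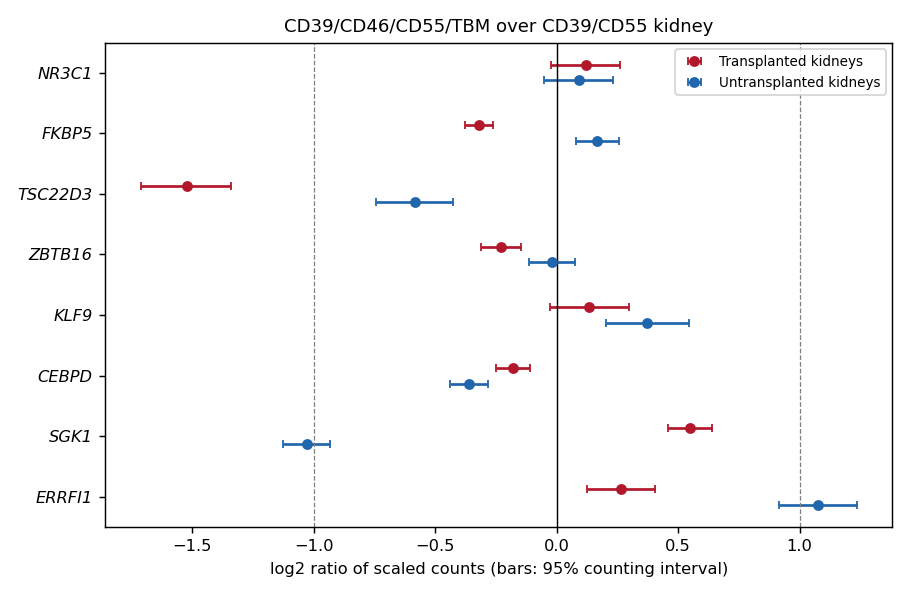
Log2 ratio of scaled counts, CD39/CD46/CD55/TBM over CD39/CD55 kidney (horizontal axis), for the 8 genes in transplanted and untransplanted kidneys, with 95% counting intervals and dashed lines at 2-fold. TSC22D3 lies below 0 in both states, at -1.52 in transplanted and -0.58 in untransplanted kidneys, and the intervals of NR3C1 reach across 0 in both.

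FKBP5 and SGK1 had genotype ratios of opposite sign in the states. For FKBP5 the log2 ratio was -0.32 (-0.38 to -0.26) between the transplanted kidneys and 0.17 (0.08 to 0.26) between the untransplanted ones. For SGK1 it was 0.55 (0.46 to 0.64) between the transplanted and -1.03 between the untransplanted kidneys. NR3C1 differed by less than counting error in both, at 0.12 (-0.02 to 0.26) between the transplanted and 0.09 (-0.05 to 0.23) between the untransplanted kidneys. In edgeR's test of the genotypes over both states none of the 8 passed, and no gene of 18168 did, 0% in each direction. At an unadjusted p under 0.05 the same test gave 0 of the 8 and 449 genes in all, or 2.47%. DESeq2's Wald test and limma voom each gave 1 of the 8 at that level, with 579 and 385 genes in all. After adjustment DESeq2's Wald test called 17 genes, none of the 8 among them. In edgeR's test TSC22D3 came nearest, at -1.05 on the log2 scale (SE 0.45, unadjusted p = 0.0548, adjusted p = 0.982). It was lower in both CD39/CD46/CD55/TBM libraries than in both CD39/CD55 libraries, as were 15.6% of all genes. ERRFI1 was higher in both, as were 15.3%.

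Counts relative to the receptor gene within a library are free of any scaling between libraries. FKBP5 had 5.43 and 7.36 counts per count of NR3C1 in the 6-week and 4-week grafts, against 2.61 and 2.48 in their untransplanted counterparts. The untransplanted ratios were near each other and both transplanted ones were higher. TSC22D3 had 0.406 and 1.27 in the 6-week and 4-week grafts, against 0.664 and 1.06 in their counterparts. ZBTB16 had 2.70 and 3.43 counts per count of NR3C1 in the 6-week and 4-week grafts, against 2.16 and 2.33 in their counterparts. CEBPD had 3.76 and 4.63 in the grafts, against 2.85 and 3.90 in their counterparts, so on this measure the 6-week graft lay below the untransplanted CD39/CD55 kidney. KLF9 had 0.787 and 0.779 in the grafts, against 0.765 and 0.628 in their counterparts. The untransplanted CD39/CD55 kidney had the lowest ratio for KLF9, and the other 3 were close together.

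**Figure D4:**
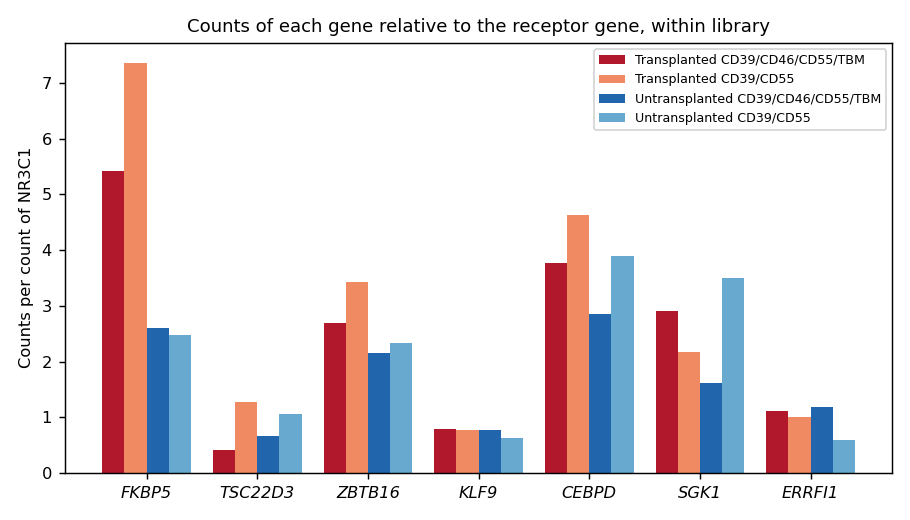
Counts of each gene per count of NR3C1 within the same library (vertical axis, from 0), with 1 bar a library in the order of the legend. The bars of FKBP5 stand at 5.43 and 7.36 in the transplanted kidneys and at 2.61 and 2.48 in the untransplanted ones, while those of KLF9 lie between 0.628 and 0.787.

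The profiles of the 8 genes over the 4 libraries were set against each other by the distance between their centred log2 scaled CPM. NR3C1 and KLF9 were the most alike, at a distance of 0.266, followed by ZBTB16 and CEBPD at 0.271. FKBP5 and TSC22D3 were the least alike, at 1.84. The member closest to FKBP5 was ZBTB16, at 0.883, and 464 of 9761 compared genes were closer to FKBP5 than that. The 5 genes most like FKBP5 were TNFAIP2, TMEM14A, IFIT1, GPR176 and SLC25A24, at distances between 0.226 and 0.237. TNFAIP2, the first of these, had 181 and 267 counts in the 6-week and 4-week grafts, against 105 and 104 in their counterparts. With 4 libraries many genes share a profile.

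Other genes of the pathway were taken from 8 lists of 102 genes, of which 101 were in the files and 93 passed the filter. Of these 93, 2 rose and 3 fell after transplantation in edgeR's test over all genes, where 1.24% of all genes rose and 2.71% fell. ANXA1 and SERPINA3-2 rose, and MT1A, PER2 and SLC12A3 fell. None passed in the test between genotypes. The median log2 ratio of the 93 was 0.18 in CD39/CD46/CD55/TBM and 0.09 in CD39/CD55.

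Genes of the receptors and of hormone metabolism come first. NR3C2, the mineralocorticoid receptor, had 1603 and 872 counts in the 6-week and 4-week grafts, against 996 and 669 in their untransplanted counterparts (log2 fold change 0.82, SE 0.48, adjusted p = 0.368). HSD11B1, which regenerates active cortisol, had 179 and 196 counts in the 6-week and 4-week grafts, against 95 and 96 in their counterparts. It was called higher in both genotypes, with log2 ratios of 1.20 (0.84 to 1.58) in CD39/CD46/CD55/TBM and 1.18 (0.82 to 1.55) in CD39/CD55, but its adjusted p over both was 0.150. With genotype as a block it passed (1.19, adjusted p = 0.0369). HSD11B2, the enzyme that inactivates cortisol, had 8 and 23 counts in the 6-week and 4-week grafts, against 34 and 11 in their counterparts. It was called lower in CD39/CD46/CD55/TBM, at -1.73 (-3.12 to -0.66), and higher in CD39/CD55, at 1.18 (0.12 to 2.40), on few counts. HSP90AB1, a chaperone of the receptor, had 10732 and 14913 counts in the 6-week and 4-week grafts, against 12027 and 14855 in their counterparts (adjusted p = 0.898), and of the 15 chaperones and coregulators none passed. Reads of HSP90AB1 may be shared with near-identical copies.

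Of 55 other tested genes known as induced by glucocorticoids, 2 rose and 2 fell. ANXA1, annexin A1, which mediates part of the anti-inflammatory action of glucocorticoids, had 589 and 347 counts in the 6-week and 4-week grafts, against 119 and 94 in their counterparts (log2 fold change 2.39, SE 0.48, adjusted p = 0.0171). It passed under every alternative that kept all 4 libraries, with an adjusted p of 0.0247 under limma voom and 3.09e-05 with genotype as a block. Its log2 fold change was 1.79 when the 6-week graft was removed. SERPINA3-2, of the protease inhibitors of the acute phase, had 89 and 111 counts in the 6-week and 4-week grafts, against 16 and 10 in their counterparts (3.13, SE 0.57, adjusted p = 0.0117). It belongs to a multigene family, so its reads may be split among copies.

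The 2 that fell were PER2 and MT1A. The clock gene PER2 had 85 and 148 counts in the 6-week and 4-week grafts, against 413 and 443 in their counterparts (-1.68, SE 0.43, adjusted p = 0.0466). It did not pass with library totals as the scaling, under limma voom or when 1 of the libraries except the 4-week graft was left out (with adjusted p from 0.00129 to 0.165 under all settings). The metallothionein gene MT1A had 317 and 267 counts in the 6-week and 4-week grafts, against 3259 and 24661 in their counterparts (-5.30, SE 0.84, adjusted p = 0.00549). With the untransplanted CD39/CD55 kidney removed, its log2 fold change was -3.30. Its reads may include those of a near copy.

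PER1, a clock gene with known receptor binding sites, had 651 and 1774 counts in the 6-week and 4-week grafts, against 1083 and 1343 in their counterparts. It was lower after transplantation in CD39/CD46/CD55/TBM, at -0.44 (-0.59 to -0.30), and higher in CD39/CD55, at 0.55 (0.45 to 0.65), the same signs as TSC22D3. The phosphatase gene DUSP1 had 482 and 432 counts in the 6-week and 4-week grafts, against 1121 and 523 in their counterparts (adjusted p = 0.476). PCK1, an enzyme of gluconeogenesis in the proximal tubule, had 2834 and 47943 counts in the 6-week and 4-week grafts, against 31480 and 90982 in their counterparts (-1.14, SE 0.91, adjusted p = 0.52). Without the 4-week graft its log2 fold change was -4.05. With genotype as a block it was -1.98 and passed (adjusted p = 0.0181).

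Metabolic genes had the lowest medians among the induced lists. Of 15 tested, 9 were called lower and 1 higher in CD39/CD46/CD55/TBM and 6 lower and 1 higher in CD39/CD55, with medians of -1.27 in CD39/CD46/CD55/TBM and -0.78 in CD39/CD55. Over all genes 16.3% were called lower and 15.9% higher in CD39/CD46/CD55/TBM, and 13.7% lower and 13.2% higher in CD39/CD55. PCK1 held the most counts of that list. Proximal tubule markers were low in the same libraries, as given above. The 19 signalling and cell cycle genes had medians of 0.53 in CD39/CD46/CD55/TBM and 0.39 in CD39/CD55, and the most abundant of them, THBS1, had 3113 and 3084 counts in the 6-week and 4-week grafts, against 6851 and 4455 in their counterparts (adjusted p = 0.467). Of the 13 tested transcription and clock genes, whose medians were 0.21 in CD39/CD46/CD55/TBM and 0.48 in CD39/CD55, FOXO3 held the most counts, 1906 and 2317 in the 6-week and 4-week grafts, against 1580 and 1844 in their counterparts (adjusted p = 0.522). The 8 inflammation control genes had medians of 0.45 in CD39/CD46/CD55/TBM and 0.13 in CD39/CD55, and NFKBIA, which encodes an inhibitor of NF-kappaB, had 502 and 615 counts in the 6-week and 4-week grafts, against 487 and 721 in their counterparts (adjusted p = 0.903). CEBPB was listed at 0 counts in every library.

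Sodium handling genes of the distal nephron, where SGK1 acts, had medians of 0.10 in CD39/CD46/CD55/TBM and -0.02 in CD39/CD55. Of 8, 1 fell and none rose. That was SLC12A3, the thiazide-sensitive cotransporter, with 23 and 81 counts in the 6-week and 4-week grafts, against 3094 and 2934 in their counterparts (-5.69, SE 0.61, adjusted p = 0.00098). With the 4-week graft removed this was -6.67, and with the 6-week graft removed -5.12, both past the test. SLC12A3 is also in the marker list of the thick ascending limb and distal convoluted tubule given above, and the part of those cells in its value was not tested.

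Genes known to be repressed by glucocorticoids had medians of 0.96 in CD39/CD46/CD55/TBM and 0.47 in CD39/CD55, several of them on few counts. The median in CD39/CD46/CD55/TBM is the value of IL11, with 13 counts in the 6-week graft and 8 in its counterpart (interval -0.39 to 2.47). Of 16 listed, 11 passed the filter. None passed the test in either direction, and 5 were called higher and none lower in CD39/CD46/CD55/TBM, with 2 higher and 1 lower in CD39/CD55. Part of these calls follows from the filter. SELE, at 28 counts in the 6-week graft and 1 in its counterpart, and LIF, at 13 and 4, passed it only through that graft. TNF, at 1 count in the 4-week graft and 10 in its counterpart, passed it only through that counterpart. IL6 and IL11, at 20 and 25 counts in the 4-week graft and 1 each in its counterpart, passed it only through the grafts. The shares of all genes were 15.9% higher and 16.3% lower in CD39/CD46/CD55/TBM and 13.2% higher and 13.7% lower in CD39/CD55. The numbers called in CD39/CD55 are near these shares. ICAM1, the adhesion molecule that leukocytes bind, held the most counts of the list. It had 567 and 585 in the 6-week and 4-week grafts, against 142 and 368 in their counterparts (1.42, SE 0.47, adjusted p = 0.115). With genotype as a block it passed (1.54, adjusted p = 0.0038). It did not pass with DESeq2 size factors, with library totals, under DESeq2's Wald test, under limma voom or without the filter. Its log2 fold change was 1.53 with the 4-week graft removed and 2.18 with the untransplanted CD39/CD55 kidney removed. Its values with either CD39/CD46/CD55/TBM library removed are not given here.

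**Figure D5:**
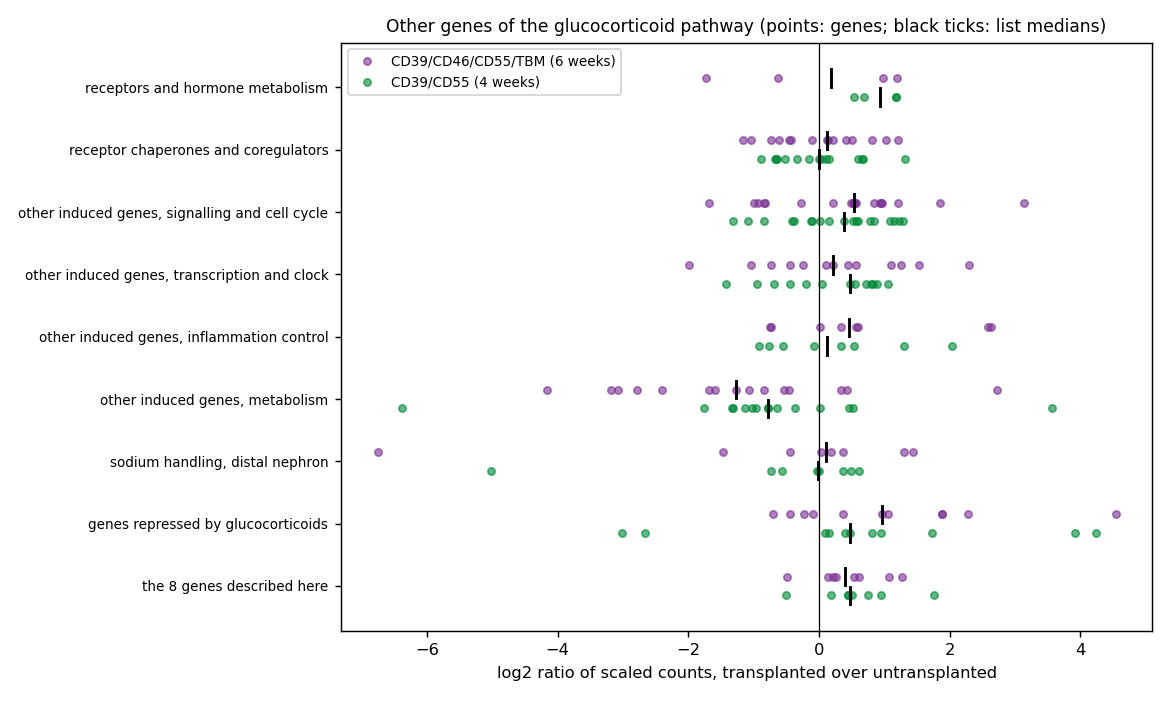
Log2 ratio of scaled counts, transplanted over untransplanted kidney (horizontal axis), for the tested genes of each list (points) in each genotype, with black ticks at the list medians. The metabolic genes have medians of -1.27 in CD39/CD46/CD55/TBM and -0.78 in CD39/CD55, and the 8 genes described here have 0.40 in CD39/CD46/CD55/TBM and 0.47 in CD39/CD55.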

How the data were processed

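The deposited values are unnormalized read counts by gene, whole numbers whose totals differ between libraries. Libraries were made with a Lexogen Quant-Seq kit, per the labels' protocols, but the catalogue number given there may belong to another kit. Whether counts are of transcript ends or whole transcripts is thus not settled, nor what counts at loci that overlap genes stand for. The submitters' processing notes name Bowtie2, bedtools and the build Sscrofa11.1, and the sources used here do not give their roles or settings, the use of strand or the treatment of reads shared by several genes. Counts of the 81 symbols on several lines were summed. Coordinates are those of the RefSeq table of the same build, which holds all 26466 symbols. Genes with at least 10 counts in 1 library were scaled with TMM (edgeR 4.0.16, R 4.3.3). Ratios between 2 libraries used a prior count of 0.5 and an exact conditional binomial 95% interval (Clopper-Pearson); the difference between genotypes used a Wald interval. Intervals cover counting error only. Comparisons of 2 against 2 libraries used edgeR's quasi-likelihood test with Benjamini-Hochberg adjustment over 18168 genes; the spread holds the other factor, and the SE is the log2 fold change over the square root of F. Alternatives used DESeq2 1.42.0 and limma 3.58.1. The tests were also run on simulated counts with a common dispersion and no effect of the other factor. That run cannot show how the tests behave in this design. The lowest Spearman correlation between libraries was 0.929. Genes most like FKBP5 were sought among symbols other than LOC names with at least 50 counts in every library. Besides the 8 genes, the text names pathway genes past the test, the most abundant of each list, and NR3C2, HSD11B1, HSD11B2, PER1 and DUSP1; MT2A, also in that rule, was not analysed here, and 1 gene the rule names is not reported here. The genes and lists were chosen with earlier results of these data known.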

Additional observations from a re-analysis of the deposited data

Results flagged for a closer look

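Some genes had transplantation changes of opposite sign in the genotypes, each with a counting interval that excluded 1, as did 7.57% of all genes. With 1 library per group the difference was not tested. SGK1 was higher in the 6-week CD39/CD46/CD55/TBM graft and lower in the 4-week CD39/CD55 graft than in the untransplanted kidney of the same genotype, a log2 difference of 1.58. TSC22D3, PER1 and HSD11B2 had the opposite signs, with differences of -0.94, -0.99 and -2.91. HSD11B2 had at most 34 counts in any library.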

How the results depend on the processing

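The labels give no replicate numbers that pair the libraries; a block on genotype, or on state, stands in for a paired fit and leaves 1 residual degree of freedom. In the test of transplantation 225 genes rose and 493 fell. The counts were 413 and 860 under DESeq2's Wald test, 543 and 1035 without a filter, 1124 and 1681 with genotype as a block, and between 186 and 1051 and between 392 and 1349 with 1 library left out, the highest without the 4-week graft. DESeq2's Wald test and the genotype block each gave 1 of the 8 genes, FKBP5. Among the pathway genes named above, the block on genotype also called HSD11B1, PCK1 and ICAM1. Of the listed pathway genes not named above, it called G6PC, PDK4, ANGPTL4, GLUL, MAOA, ALPL, STOM and CAVIN2, with main log2 fold changes below 0. It also called NCOA3, CRISPLD2, TFCP2L1, BCL6 and IRAK3, with main log2 fold changes above 0. Among these, G6PC, GLUL and IRAK3 also passed under DESeq2's Wald test, G6PC and IRAK3 without a filter, and G6PC under limma voom. In the test of the genotypes, 0 and 0 genes became 12 and 5 under DESeq2's Wald test, 133 and 171 with state as a block, and between 0 and 14 and between 0 and 4 with 1 library left out. The log2 fold change of TSC22D3 after transplantation was -0.020 under limma voom and -0.017 with genotype as a block. With 1 library left out, values that did not pass changed sign: after transplantation TSC22D3 ranged from -0.80 to 0.71, SGK1 from -0.20 to 0.83, HSD11B2 from -1.15 to 0.72, PER1 from -0.54 to 0.65, DUSP1 from -1.12 to 0.095 and NFKBIA from -0.099 to 0.35. Between genotypes FKBP5 ranged from -0.97 to 0.95, ZBTB16 from -0.47 to 0.28, SGK1 from -0.80 to 0.28, NR3C1 from -0.0077 to 0.22 and CEBPD from -0.60 to 0.028. Scaling by library totals moved the median log2 ratio of all genes in CD39/CD55 to 0.16, against 0.03, and the share of higher among called genes to 59.1%, against 49.0%. It added ERRFI1 to FKBP5 there, 2 of the 8 called higher, where 2962 of all 18168 genes were. It also made the difference between genotypes in TSC22D3, 1 of the 8, called lower, where 2333 of all genes were. With a threshold of 1.5-fold 3 of the 8 were called higher in CD39/CD55, where 3991 of all 18168 genes were. Of the differences between genotypes 2 of the 8 were then called lower, where 3443 of all genes were. The cause of these changes was not tested.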
